A study of Mus musculus with 48 samples.

Results

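Cholesterol synthesis in the liver is held in check by a feedback loop around sterol regulatory element binding protein 2 (SREBP2). The genes described here are Srebf2, which encodes SREBP2, Insig1 and Insig2, whose products hold the loop back, and Hmgcs1, Pmvk, Fdps, Sqle and Cyp51, which encode enzymes of the synthesis pathway. Each was taken by its symbol in the gene column of the liver table, with the probe set of highest mean signal per gene. Of the 8 genes, 7 were found in this way among 21399 different symbols, each with a single probe set. The symbol of Hmgcs1 was not in that column. Its probe set, 10412466, was named from the gene list that accompanies the study. The names in that list equalled those of the liver table for 85.7% of 21081 probe sets that carry a name in each, so the identity of the Hmgcs1 probe set rests on that list alone, and this gene is kept out of the counts of called genes given as a number of 7.

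Liver was taken from male mice of the strain labelled Bl6J, aged 10 to 12 weeks. Mice under timed sleep restriction (TSR) were kept awake by gentle handling between ZT0 and ZT6, that is in the early part of the light phase with lights on at ZT0, on 5 days in a row, slept freely for 2 days, and were handled again for 5 days. Control mice were kept in parallel without handling. By the study's methods, collection began in the evening before the last handling day, so not every TSR group had the full second block. At ZT1, ZT7, ZT13 and ZT19, RNA from 3 mice per treatment was hybridized, which gave 24 Affymetrix Mouse Gene 1.0 ST arrays in 8 groups. All mice were of a single sex and strain. Whole liver RNA was used, so fewer cells of a type and less RNA per cell cannot be told apart.

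SREBP2 is made as a precursor in the membrane of the endoplasmic reticulum, where it is bound by SCAP. When membrane cholesterol is low, SCAP carries the precursor to the Golgi, site-1 and site-2 proteases cut it, and the freed domain enters the nucleus and activates genes for cholesterol synthesis and uptake. When sterols are plentiful, INSIG1 and INSIG2 hold SCAP back, and the precursor stays uncut. Insig1 is itself a target of SREBP, and a liver transcript of Insig2 is known to be lowered by insulin. Hmgcs1 encodes HMG-CoA synthase, Pmvk phosphomevalonate kinase and Fdps farnesyl diphosphate synthase, which act in turn on the way to squalene. Sqle encodes squalene epoxidase, and Cyp51 the lanosterol demethylase that follows it.

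SREBP2 binds sterol regulatory elements, short DNA stretches close to the start of its target genes, and 3 promoter windows of the genes studied are shown because they hold the letters of such an element or of an E-box, the DNA letters read by clock proteins of the CLOCK and BMAL1 type. Each window spans 300 bases around the gene start, from RefSeq on GRCm38.p6. The window of Hmgcs1 lies on chr13:119690101-119690400 and that of Srebf2 on chr15:82147019-82147318, and that of Insig1 lies on chr5:28071162-28071461, all on the plus strand. Capitals mark the sterol element in Hmgcs1, its shorter form in Srebf2 and the E-box in Insig1.
Hmgcs1: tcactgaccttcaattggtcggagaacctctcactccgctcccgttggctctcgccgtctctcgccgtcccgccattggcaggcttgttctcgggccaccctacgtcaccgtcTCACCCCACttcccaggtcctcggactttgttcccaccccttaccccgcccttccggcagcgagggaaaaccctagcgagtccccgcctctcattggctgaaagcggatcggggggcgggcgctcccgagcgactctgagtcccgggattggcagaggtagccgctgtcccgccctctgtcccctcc
Srebf2: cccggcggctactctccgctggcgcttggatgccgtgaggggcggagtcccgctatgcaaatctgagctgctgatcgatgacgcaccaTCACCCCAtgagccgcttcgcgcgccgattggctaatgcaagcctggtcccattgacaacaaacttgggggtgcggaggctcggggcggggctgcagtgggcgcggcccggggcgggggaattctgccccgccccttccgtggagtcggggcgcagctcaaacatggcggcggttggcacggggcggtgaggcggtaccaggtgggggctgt
Insig1: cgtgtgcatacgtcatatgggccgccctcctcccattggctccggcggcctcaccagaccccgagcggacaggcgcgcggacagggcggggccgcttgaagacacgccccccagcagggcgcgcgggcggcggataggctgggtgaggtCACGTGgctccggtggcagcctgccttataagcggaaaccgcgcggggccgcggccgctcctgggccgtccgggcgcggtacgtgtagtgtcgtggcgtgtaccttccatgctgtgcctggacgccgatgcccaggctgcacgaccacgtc
The letters searched, on both strands, were TCACNCCAC for the sterol element, TCACCCCA for a shorter form that overlaps it, CACGTG for the E-box and CCAAT for the CCAAT box. The short form was added after the windows had been read. RefSeq windows were at hand for 6 of the 8 genes, all but Fdps and Sqle. The sterol element was found in Hmgcs1 only, with its first base at -137 counted from the gene start, and it occurs in 1.24% of all 32851 windows. The short form was found in Hmgcs1 and Srebf2, in Srebf2 at -162, and occurs in 1.56% of all windows. The E-box was found in Insig1 only, at -101, against 7.15% of all windows. The letters searched for a sterol element and an E-box had no match in the 3 windows of Insig2, the 2 of Pmvk or the window of Cyp51. Sterol elements with other letters were not searched, so these windows are not shown to lack one. CCAAT was found in at least 1 window of each of the 6 genes and in 37.4% of all windows. A match of letters is not a measured binding site.

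Signals are fluorescence intensities on a linear scale as deposited, and differences are given as log2 of TSR over control. A positive value therefore stands for a higher signal in TSR liver. The spread was estimated over all 8 groups with limma, and p-values were adjusted with Benjamini-Hochberg over 12803 probe sets that carry a symbol and a mean signal over 97.37, which is the median on the array. A result was called where the adjusted p was under 0.05. All 7 genes lay above this median. For Hmgcs1, which carries no symbol in the table, the adjusted p comes from the same limma fit over all 28815 probe sets. Each value is that of 1 array, and precision is set by how few arrays, 3, each group holds.

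Some arrays stood apart from the rest over the array as a whole. A shared pattern over all tested probe sets, weighted by how TSR ZT1 replicate 3 and control ZT7 replicate 3 differed from their mates, scored 28.17 to 32.44 in 5 arrays, which were TSR ZT1 replicate 3, control ZT7 replicate 3 and all 3 of control ZT19. The other 19 arrays scored -20.75 to 16.31, with TSR ZT13 replicate 2 and 3 the highest at 16.31 and 13.06. Since all control ZT19 arrays carry the pattern and no TSR ZT19 array does, pattern and treatment cannot be told apart at ZT19. Of 14 pancreatic acinar markers 11 were measured, and their median log2 signal was 9.258 in TSR ZT19 replicate 3, against 6.679 in the next highest array. None of the 11 had a mean signal under 3. Their summed signal ranged over 550 to 10966 in TSR arrays and 536 to 758 in control arrays. The 7 hepatocyte markers had a median log2 signal of 13.11 to 13.44 in TSR arrays and 13.07 to 13.26 in control arrays. The array labels carry the numbers 1 to 12 for TSR and 37 to 48 for control, so a difference between these number blocks cannot be told apart from treatment.

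**Figure D1:**
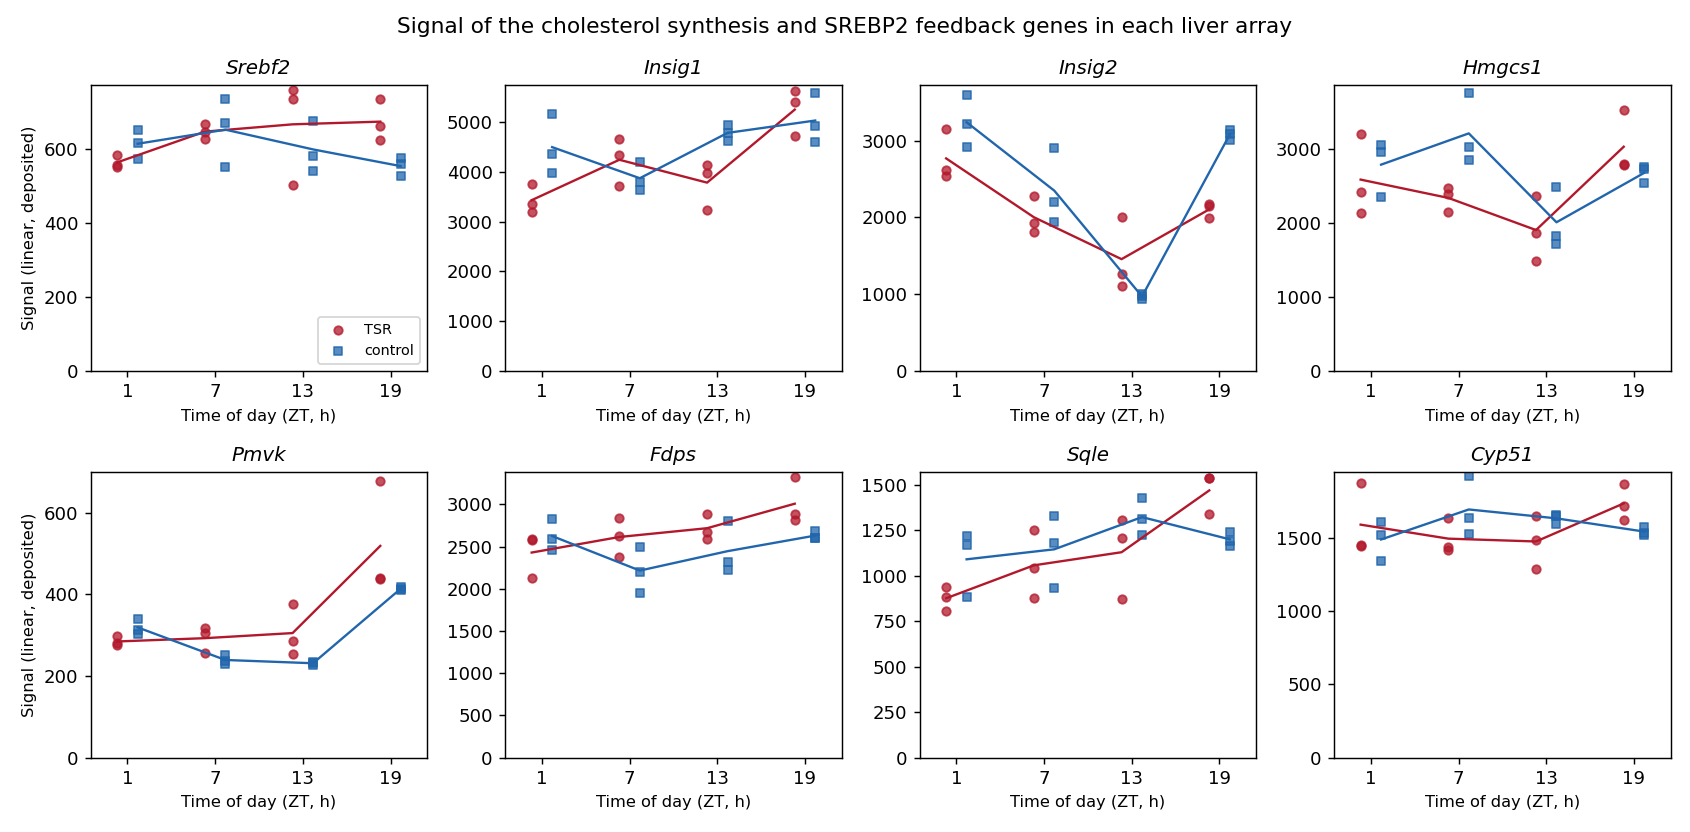
Signal of each gene (linear deposited intensity, y axis from 0) in each of the 24 liver arrays against time of day (ZT in h); red circles are TSR, blue squares control, and lines join the means of 3 arrays, with the treatments set slightly apart along the axis. Insig2 has its lowest mean at ZT13 in both treatments, at 1456 in TSR and 969 in control liver, while the 3 TSR arrays of Sqle at ZT19 lie between 1338 and 1537, all above the control arrays.

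Between treatments, only Insig1, Insig2 and Pmvk of the 7 genes passed the test at a time point or in the mean. At ZT13, 2 of 7 were called, Insig2 higher and Insig1 lower in TSR liver, where 17.8% of all tested probe sets were called. At ZT19, 1 of 7 was called, Insig2 lower in TSR, against 15.1% of tested probe sets. None of 7 was called at ZT1, against 2.72% and with 2494 tested probe sets at an unadjusted p under 0.05 in limma, nor at ZT7, against 14.8% and with 4019 such probe sets. With array quality weights in limma, 2 of 7 were called at each of these time points. The share of all tested probe sets called with those weights is not given here. In the mean over the 4 time points 1 of 7 was called, Pmvk higher in TSR, against 27% of tested probe sets. Each of these 4 calls ended when probe sets of low signal were kept in the adjustment, with limma adjusted p-values of 0.0693 for Insig2 and 0.0909 for Insig1 at ZT13, 0.0665 for Insig2 at ZT19 and 0.0870 for Pmvk in the mean. With 7 genes, counts of 0 to 2 beside these shares do not set the group apart from the array as a whole. The median difference over the 7 genes was -0.16, -0.00, 0.14 and 0.19 from ZT1 through ZT19, beside medians over all tested probe sets of 0.01, 0.01, 0.02 and 0.02.

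Insig2, which encodes the INSIG protein whose gene is not known as an SREBP target, had the widest daily range of the genes studied in both treatments, and was higher in TSR liver at ZT13 and lower at ZT19. Its signal at ZT1 was 2616, 2536 and 3154 in TSR arrays and 2911, 3594 and 3216 in control arrays. At ZT7 it was 1804, 2275 and 1928 in TSR and 2196, 1939 and 2909 in control liver. At these times of day the treatments overlapped. The trough came at ZT13, with 1260.1, 2005 and 1102 in TSR and 977, 999 and 932 in control arrays. All TSR arrays lay above all control arrays there, and the TSR arrays were far more spread. At ZT19 the order was turned, with 2180.2, 1989 and 2146 in TSR and 3089.6, 3005 and 3143 in control arrays, so that every TSR array lay below every control array. Of all tested probe sets, 16.8% had TSR arrays wholly above control at ZT13, and 18.3% had them wholly below at ZT19.

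The difference in Insig2 was 0.54 ± 0.17 (SE, 3 arrays per group) at ZT13, a 1.45-fold higher level in TSR liver (limma adjusted p = 0.0361). At ZT19 it was -0.55 ± 0.17, a 1.46-fold lower level in TSR liver (limma adjusted p = 0.0368). At ZT1 and ZT7 it was -0.23 (95% interval -0.58 to 0.13) and -0.22 (-0.57 to 0.14), and neither was called. The effect of TSR on Insig2 differed between time points (interaction F-test in limma, adjusted p = 0.0225, with 20.6% of tested probe sets called), and the largest and smallest effect lay 1.09 apart on the log2 scale. That call remained when any single array was left out (limma adjusted p at most 0.0457). The highest group mean was 1.9 times the lowest in TSR liver and 3.34 times the lowest in control liver.

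Single arrays bear on both called time points of Insig2. At ZT13 the highest TSR array, at 2005, was replicate 2, and without it the difference was 0.28 (limma adjusted p = 0.167). Replicate 2 had a pattern score of 16.31. TSR ZT13 replicate 3, with a score of 13.06, had the lowest Insig2 signal of the group, at 1102. Leaving out control ZT13 replicate 1, 2 or 3 also ended the call, at differences of 0.54, 0.56 and 0.51. At ZT19, leaving out any of the 6 arrays of that time point ended the call, at -0.58 to -0.51 (limma adjusted p up to 0.0979). The control arrays at ZT19 all carry the shared pattern. The other arrays that carry it, TSR ZT1 replicate 3 and control ZT7 replicate 3, are those from which its weights were taken. Their Insig2 signals, 3154 and 2909, were the highest of their groups but enter those weights, so they are no test of the pattern. The part of the pattern in the ZT19 difference cannot be told apart from TSR. Without these 5 arrays the ZT13 difference was 0.54 (limma adjusted p = 0.0327). The mean over the 4 time points, -0.11, was not called (limma adjusted p = 0.330), but was called without TSR ZT13 replicate 2, at -0.18 (adjusted p = 0.0469).

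Insig1, the INSIG gene that SREBP itself activates, was lower in TSR liver at ZT13, the time point at which Insig2 was higher. At ZT1 its signal was 3351, 3191 and 3746 in TSR and 5155, 3980.1 and 4352 in control liver. At ZT7 it was 4668, 4344 and 3713 in TSR and 4191, 3785 and 3635 in control liver. At ZT1 the TSR arrays all lay below the control arrays, as for 13.3% of tested probe sets, and at ZT7 the treatments overlapped. At ZT13 the arrays read 3981, 4130.3 and 3235 in TSR and 4778, 4949 and 4617 in control liver, again with all TSR arrays below, as for 17.3% of tested probe sets. At ZT19 they read 4729, 5624 and 5397 in TSR and 5574, 4914 and 4602 in control liver and overlapped.

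Insig1 was lower in TSR liver at ZT13 by a difference of -0.35 ± 0.12 (SE, 3 arrays per group), or 1.27-fold (limma adjusted p = 0.0480). The difference at ZT1 was of like size, -0.39 ± 0.12, but was not called (limma adjusted p = 0.0812). At ZT7 it was 0.13 (95% interval -0.12 to 0.37) and at ZT19 0.06 (-0.18 to 0.31). The effect of TSR on Insig1 differed between time points (interaction F-test in limma, adjusted p = 0.0455). These calls were close to the threshold. Without the 5 arrays of the shared pattern the ZT13 difference was -0.35 (adjusted p = 0.0514), and the mean over the remaining time points was -0.24 (adjusted p = 0.0303), where all arrays gave -0.14 (adjusted p = 0.0931). The ZT13 call was lost without TSR ZT13 replicate 3, at -0.24 (limma adjusted p = 0.191), and without TSR ZT1 replicate 1 or 2, TSR ZT7 replicate 2, TSR ZT13 replicate 1, control ZT1 replicate 3, control ZT7 replicate 2 or any control array of ZT13 or ZT19, at -0.39 to -0.32. The interaction was lost without any of 14 of the 24 arrays (limma adjusted p up to 0.0786). These were replicates 1 and 2 of TSR ZT1 and of TSR ZT7, replicate 2 of TSR ZT19, replicates 1 and 3 of control ZT1, replicates 2 and 3 of control ZT7, all of control ZT13, and replicates 2 and 3 of control ZT19, with the largest and smallest effect then 0.45 to 0.53 apart.

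**Figure D2:**
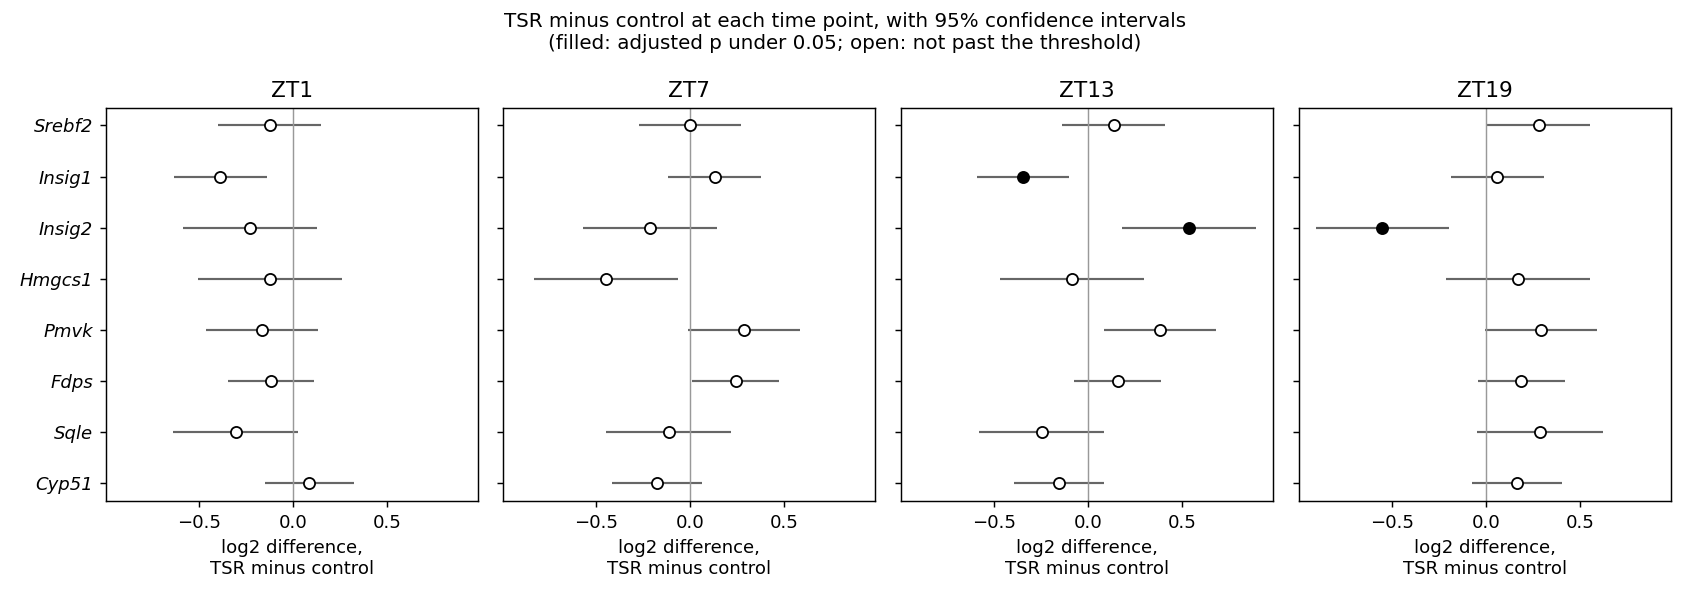
Difference in log2 signal, TSR minus control, at each time point for the 8 genes (x axis), with bars for the 95% confidence interval of the 8-group fit on 3 arrays per group; filled points passed an adjusted p of 0.05. Insig2 is filled at ZT13 (0.54) and ZT19 (-0.55) and Insig1 at ZT13 (-0.35), and all other points are open.

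Srebf2, the gene for SREBP2 itself, varied little through the day. Its signal at ZT1 was 556, 551 and 583 in TSR and 617, 573 and 652 in control liver. At ZT19 it was 734, 662 and 625 in TSR and 527, 574 and 558 in control liver, and the treatments did not overlap there. At ZT7 and ZT13 they overlapped, with means of 647 ± 21.1 and 666 ± 142 in TSR and 652 ± 93.2 and 599 ± 69.3 in control liver (SD, n = 3 each). The ZT19 difference was 0.28 (95% interval 0.01 to 0.55, limma adjusted p = 0.141) and was not called, while limma with array quality weights gave 0.38 (adjusted p = 0.000635). At the other time points the difference ran between -0.12 and 0.14. The highest group mean was 1.2 times the lowest in TSR and 1.18 times in control liver.

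Hmgcs1, the gene for the enzyme that makes HMG-CoA, had no called difference between treatments and no called rhythm in either. At ZT7 its probe set read 2396, 2465 and 2153 in TSR and 3752, 2849 and 3031 in control liver, with every TSR array below every control array, as for 18.3% of tested probe sets. The difference was -0.45 (95% interval -0.83 to -0.07) and was not called in limma (adjusted p = 0.168). The lowest group mean fell at ZT13 in both treatments, at 1903 ± 446 in TSR and 2008 ± 415 in control liver (SD, n = 3 each). The highest mean was at ZT19 in TSR, at 3030.0 ± 427, and at ZT7 in control liver, at 3211 ± 478. The ratio of highest to lowest mean was 1.59 in TSR and 1.6 in control liver.

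Pmvk, a kinase of the mevalonate steps, was the only enzyme gene of the 7 with a called difference between treatments. At ZT1 its signal was 297, 279.6 and 277 in TSR and 339.9, 303 and 313 in control liver, and the TSR arrays were below all control arrays. At ZT7 it was 318, 304 and 255 in TSR and 229.9, 251 and 236 in control liver, and at ZT13 286, 375 and 254 in TSR and 234, 227 and 232 in control liver. All TSR arrays were above all control arrays at ZT7, as for 20.1% of tested probe sets, and again at ZT13. At ZT19 the signal was 441, 437 and 678 in TSR and 417, 413 and 411 in control liver. The treatments did not overlap, but 1 TSR array stood far above the rest.

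Over the 4 time points Pmvk was higher in TSR liver by a difference of 0.20 ± 0.07 (SE, 12 arrays per treatment), or 1.15-fold (limma adjusted p = 0.0436). Its differences at single time points were -0.16, 0.29, 0.38 and 0.29 from ZT1 to ZT19, with limma adjusted p-values of 0.540, 0.175, 0.0669 and 0.156. The TSR array with 678 at ZT19 is replicate 3, the array with the high pancreatic markers. Without it the ZT19 difference was 0.08 (limma adjusted p = 0.674), the mean difference was 0.15 (adjusted p = 0.0642), and the ZT13 difference of 0.38 was called (adjusted p = 0.0174). The part of pancreatic RNA in the Pmvk signal was not tested. The ZT13 difference was also called without TSR ZT13 replicate 3 (0.50, adjusted p = 0.0327). Without the 5 arrays of the shared pattern the mean over the remaining time points, all but ZT19, was 0.17 (limma adjusted p = 0.208). The call in the mean was kept without any single one of control ZT1 replicate 1, control ZT7 replicate 2, TSR ZT1 replicate 3, TSR ZT7 replicate 3, TSR ZT13 replicates 1 and 3, and TSR ZT19 replicates 1 and 2, and lost without any of the other 16 arrays, at 0.15 to 0.20 (limma adjusted p up to 0.0754).

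Fdps, Sqle and Cyp51, which act later in the pathway, had no called difference between treatments at any time point or in the mean. Without the 5 arrays of the shared pattern no control array of ZT19 is left. In the mean over the remaining time points Sqle was then called, at -0.29 (limma adjusted p = 0.0475). All 4 time points gave -0.09 (limma adjusted p = 0.394). Array quality weights called Sqle at ZT19 (0.32, adjusted p = 0.0196) and Cyp51 at ZT7 (-0.26, adjusted p = 0.0449) and ZT19 (0.24, adjusted p = 0.0113). Fdps had its highest mean at ZT19 in both treatments, at 3007 ± 272 in TSR and 2629 ± 45 in control liver (SD, n = 3 each). The highest TSR array there, at 3318, was replicate 3, the array with the high pancreatic markers. Without it the ZT19 difference of Fdps was 0.12 (limma adjusted p = 0.542), and the part of pancreatic RNA was not tested. The Fdps difference at ZT7 was 0.24 (95% interval 0.01 to 0.47, limma adjusted p = 0.140). For Sqle the 3 TSR arrays at ZT1 read 881, 807 and 941, against 1219, 882 and 1172 in control liver, with 1 TSR array above the lowest control array. At ZT19 they read 1537, 1338 and 1536 in TSR and 1194, 1243 and 1166 in control liver, without overlap. Its difference was -0.30 (95% interval -0.64 to 0.03) at ZT1 and 0.29 (-0.04 to 0.62) at ZT19. Cyp51 ranged over 1289 to 1876 in the 12 TSR arrays and 1339.9 to 1919 in the 12 control arrays. Its ratio of highest to lowest group mean, 1.18 in TSR and 1.14 in control liver, was the smallest of the 8 genes in each treatment. At ZT19 its arrays read 1868, 1716 and 1619 in TSR and 1575, 1533 and 1517 in control liver.

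ZT19, in the dark phase when mice are active, was the time point at which most of these genes stood highest in TSR liver. The highest group mean was at ZT19 for 6 of the 7 genes in TSR liver, all but Insig2, and for 3 of 7 in control liver, Insig1, Pmvk and Fdps. Of all tested probe sets 17.4% had their highest mean at ZT19 in TSR liver and 31.4% in control liver. In control liver Srebf2 and Cyp51 were highest at ZT7, Sqle at ZT13 and Insig2 at ZT1, where Insig2 was also highest in TSR liver. At ZT19 the TSR arrays lay wholly above the control arrays for 5 of the 7 genes, Srebf2, Pmvk, Fdps, Sqle and Cyp51, against 22.7% of tested probe sets. None of the 5 was called in limma, with differences of 0.17 to 0.29 and adjusted p-values of 0.141 to 0.314. The genes share the same 6 arrays, so these counts are no test. The control arrays at ZT19 carry the shared pattern. In the other arrays that carry it, Srebf2, Fdps, Sqle and Cyp51 had the lowest signal of the 3 in control ZT7 replicate 3 and the highest of the 3 in TSR ZT1 replicate 3, while Pmvk lay between its mates in control ZT7 and lowest in TSR ZT1. The weights of the pattern were taken from these same arrays, so their signals are no test of it.

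Steps between consecutive time points show where the levels of a gene differed beyond their spread. Of 56 steps over the 7 genes 9 were called in limma, 6 of them in TSR liver. In TSR liver the step from ZT13 to ZT19 was upward for 3 genes, Pmvk by 0.75 ± 0.14 (adjusted p = 0.00199), Insig2 by 0.58 ± 0.17 (adjusted p = 0.0297) and Insig1 by 0.48 ± 0.12 (adjusted p = 0.0116), where 12.6% of tested probe sets were called. The Hmgcs1 probe set also rose over this step, by 0.69 ± 0.18 (limma adjusted p = 0.0311 over all probe sets). The step from ZT19 to ZT1 was downward for Pmvk by -0.84 ± 0.14 (adjusted p = 0.0176), Sqle by -0.75 ± 0.16 (adjusted p = 0.0263) and Insig1 by -0.61 ± 0.12 (adjusted p = 0.0176). Of all tested probe sets 1.41% were called at that step, in either direction as for the other steps. In control liver Insig2 fell from ZT7 to ZT13, a step of -1.26 ± 0.17 (adjusted p = 0.000252, 5.87% of tested probe sets called). From ZT13 to ZT19 control liver rose by 1.67 ± 0.17 in Insig2 (adjusted p = 6.619e-06) and by 0.84 ± 0.14 in Pmvk (adjusted p = 0.00088), where 23.5% were called. None of the 7 genes was called at the other steps, which were ZT1 to ZT7 (12.1% of tested probe sets in TSR and 5.34% in control liver), ZT7 to ZT13 in TSR liver (10.2%) and ZT19 to ZT1 in control liver (23.1%), with 3635, 2417, 3487 and 4938 tested probe sets at an unadjusted p under 0.05 in limma. With array quality weights 18 of the 56 steps were called, with no share over all tested probe sets given here.

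The 3 steps of control liver and the ZT13 to ZT19 step of Pmvk in TSR liver kept their calls without any single array. The upward TSR step was lost for Insig1 without TSR ZT19 replicate 2 (0.43), for Insig2 without TSR ZT13 replicate 1 (0.50) or 3 (0.40) or TSR ZT19 replicate 1 (0.55) or 2 (0.62), and for Hmgcs1 without TSR ZT13 replicate 2 (0.68) or 3 (0.52) or TSR ZT19 replicate 1 (0.57) or 2 (0.74). The downward TSR step from ZT19 to ZT1 was lost for Insig1 without TSR ZT1 replicate 1 (-0.60) or 2 (-0.56) or TSR ZT19 replicate 3 (-0.59), for Pmvk without TSR ZT1 replicate 1 (-0.87) or TSR ZT19 replicate 3 (-0.63), and for Sqle without any TSR array of ZT1 or TSR ZT19 replicate 1 or 3 (-0.80 to -0.69). Limma adjusted p-values then reached 0.152 at most. Some further steps were called without a single array, among them the TSR step of Insig2 from ZT7 to ZT13 without TSR ZT13 replicate 2 (-0.76) or control ZT7 replicate 3 (-0.50), where all arrays gave -0.50 (adjusted p = 0.0649) and array quality weights -0.60 (adjusted p = 0.0166).

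**Figure D3:**
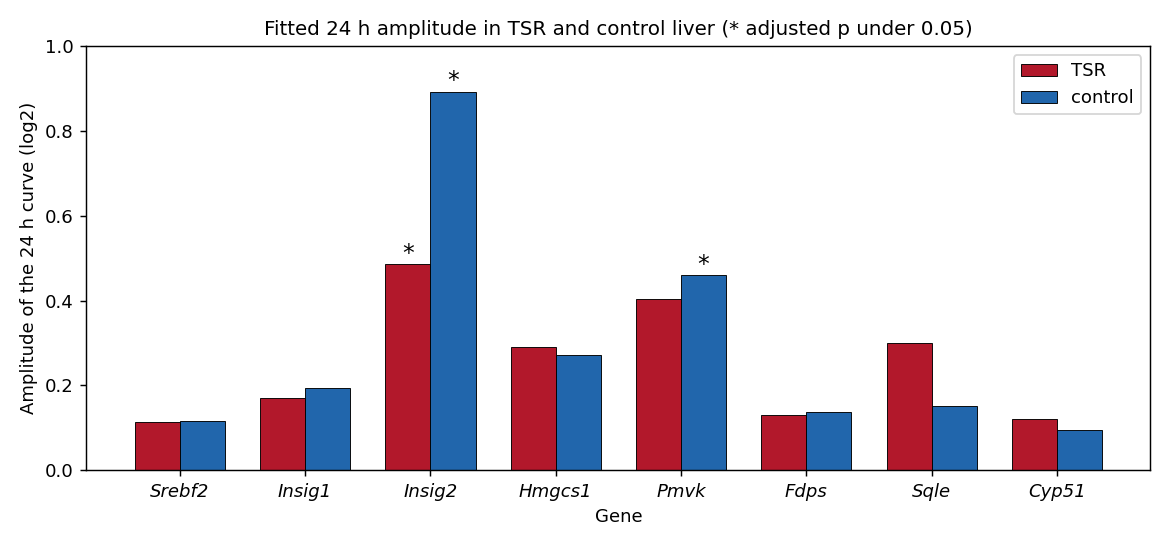
Amplitude of the fitted 24 h curve (log2 units, height of the curve above its mean) for the 8 genes, with TSR in red on the left and control in blue on the right of each pair, each fitted to 12 arrays; an asterisk marks an adjusted p under 0.05. Insig2 carries it in both treatments, at 0.49 in TSR and 0.89 in control liver, and Pmvk in control liver.

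A 24 h rhythm was called for Insig2 in both treatments and for Pmvk in control liver. The amplitude of Insig2, the height of the fitted curve above its own mean on the log2 scale, was 0.49 in TSR liver (limma adjusted p = 0.0392) and 0.89 in control liver (adjusted p = 0.00453). Its fitted peak was at 0.69 h after lights on in TSR and at 0.11 h in control liver. For Pmvk the amplitude was 0.40 in TSR liver (adjusted p = 0.143) and 0.46 in control liver (adjusted p = 0.00109), with fitted peaks at ZT18.6 in TSR and ZT21.0 in control liver. Of 7 genes, 1 was called in TSR liver and 2 in control liver, with 2.47% of tested probe sets called in TSR and 12.6% in control liver. Amplitudes of the other 5 genes ran from 0.11 to 0.30 in TSR and 0.09 to 0.19 in control liver. The rhythm of none of the 7 genes was called as different between treatments, against 0.367% of tested probe sets. Of all tested probe sets, 2084 had an unadjusted p under 0.05 in limma for this difference. Array quality weights in limma gave 3 of 7, with no share over all tested probe sets given here. For Insig2 the unweighted test gave a vector difference of 0.42 between the curves (limma adjusted p = 0.363). The Insig2 rhythm in TSR liver was called only when all arrays, all but TSR ZT13 replicate 2 or all but TSR ZT19 replicate 3 were used, and leaving out any of the other 10 TSR arrays gave amplitudes of 0.40 to 0.52 (limma adjusted p up to 0.127). The control rhythms of Insig2 and Pmvk remained called without any single array.

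Among the other enzymes of the pathway, Nsdhl, Ebp and Dhcr7 were called between treatments at a time point. Of 14 further enzymes 13 were measured, and none was called at ZT1. Nsdhl, a sterol dehydrogenase, was lower in TSR liver at ZT7 (-0.38, limma adjusted p = 0.0396) and ZT13 (-0.41, adjusted p = 0.0262) and higher at ZT19 (0.39, adjusted p = 0.0368), and its effect of TSR differed between time points (adjusted p = 0.0136). Ebp, a sterol isomerase, was higher at ZT13 (0.52, adjusted p = 0.0172), and Dhcr7, a late reductase of the pathway, lower (-0.54, adjusted p = 0.0422). These were 1 of 13 at ZT7, 3 of 13 at ZT13 and 1 of 13 at ZT19, beside 14.8%, 17.8% and 15.1% of all tested probe sets, and the counts do not set the list apart. The median difference of the 13 was -0.07, -0.10, -0.17 and 0.16 from ZT1 to ZT19, beside 0.01, 0.01, 0.02 and 0.02 for all tested probe sets. The control arrays at ZT19 all carry the shared pattern, which cannot be told apart from treatment there. No 24 h rhythm was called among the 13 in TSR liver, and 1 was called in control liver, that of Nsdhl with an amplitude of 0.25 (limma adjusted p = 0.0200).

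Among 8 genes for SREBP processing and sterol-regulated degradation, Mbtps2, the site-2 protease, was lower in TSR liver at ZT7 (-0.58, limma adjusted p = 0.0179), at ZT13 (-0.61, adjusted p = 0.0139) and in the mean (-0.41, adjusted p = 0.00103). Rnf145, a ubiquitin ligase, was lower at ZT7 (-0.60, adjusted p = 0.0174), and Erlin1 in the mean (-0.15, limma adjusted p = 0.0354). These were 2 of 8 at ZT7, 1 of 8 at ZT13 and 2 of 8 in the mean. Of all tested probe sets, 14.8%, 17.8% and 27% were called in these comparisons. At ZT19, 4 of 8 were called, beside 15.1% of all tested probe sets, Scap higher (0.33, adjusted p = 0.0405) and Mbtps1, the site-1 protease, Erlin1 and Erlin2 lower (-0.34, -0.34 and -0.27, adjusted p = 0.0257, 0.0301 and 0.0442). All 4 calls ended when probe sets of low signal were kept in the adjustment, with limma adjusted p-values of 0.0793, 0.0545, 0.0622 and 0.0913 in the same order. Of 5 genes for sterol uptake and transport, Npc2, a lysosomal cholesterol carrier, was higher in TSR liver at ZT7 (0.48, limma adjusted p = 0.0172), at ZT19 (0.56, adjusted p = 0.0114) and in the mean (0.32, adjusted p = 0.00152), and no other gene of that list was called in these comparisons. Npc2 is 1 of 5 genes, beside 14.8% of all tested probe sets at ZT7, 15.1% at ZT19 and 27% in the mean. Of 8 genes of the LXR and oxysterol response, Lpcat3 and Soat2 were lower in TSR liver at ZT7 (-0.32 and -0.47, limma adjusted p = 0.0203 and 0.0202). That is 2 of 8, beside 14.8% of all tested probe sets. All control arrays at ZT19 carry the shared pattern, so in the ZT19 calls of these lists pattern and treatment cannot be told apart.

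**Figure D4:**
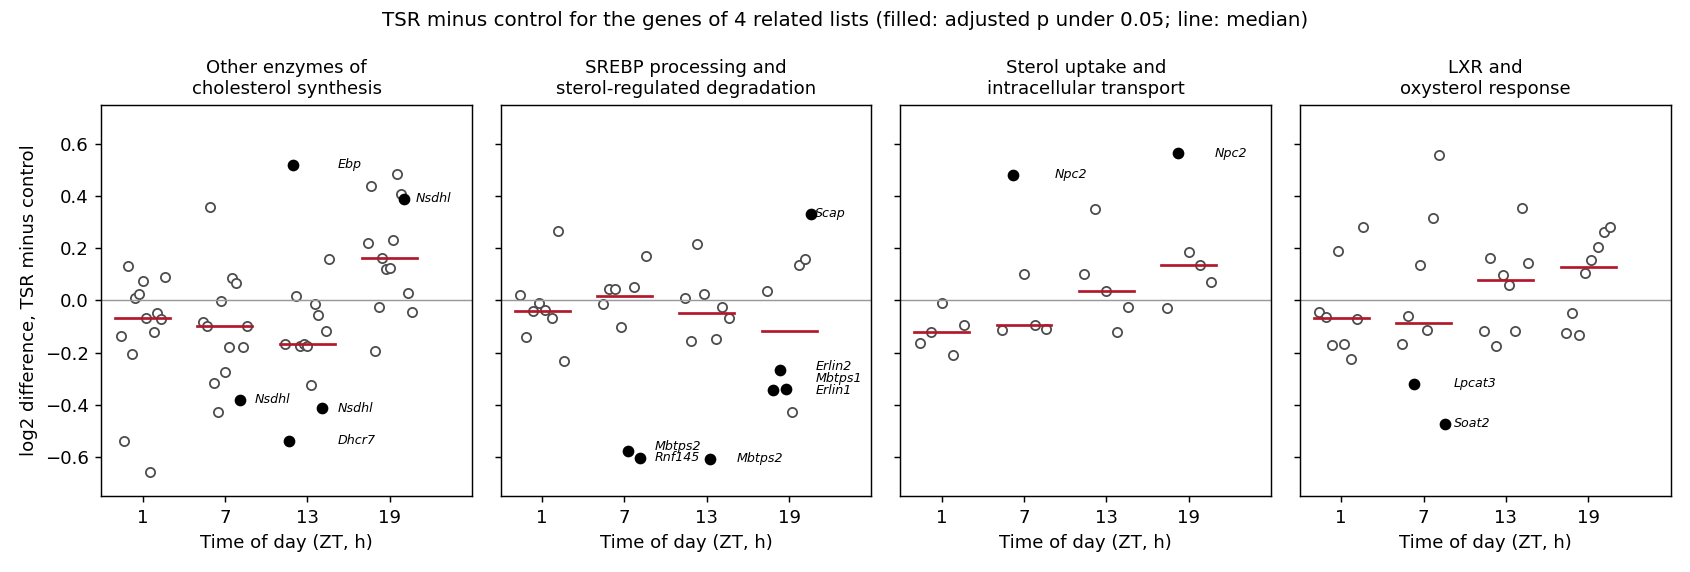
Difference in log2 signal, TSR minus control, against time of day (ZT in h) for the tested genes of 4 related lists, 13, 8, 5 and 8 genes; each point is a gene, filled and named where the adjusted p was under 0.05, and the red line is the list's median. At ZT19 the median of the other synthesis enzymes is 0.16 and only Nsdhl is filled, while Npc2 (0.56) is filled among the uptake genes.

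Many calls in these lists depended on a single array or on the filter. Of 35 called results in the 4 lists, over the comparisons of levels, the rhythms and the interaction, 8 were kept without any single array and 27 were lost without at least 1. Kept were Npc2 at ZT19 and in the mean, Mbtps2 and Lpcat3 in the mean, Nsdhl and Soat2 in the interaction, and the control rhythms of Rnf145 and Nr1h2, an LXR gene. Leaving out single arrays cannot part treatment from the shared pattern at ZT19, which all control arrays of that time point carry. With probe sets of low signal kept in, 14 of the 35 were kept and 21 lost. Up to 20 arrays could each end 1 of the 27 other calls when left out. Nsdhl lost its ZT7 call without control ZT7 replicate 1 (-0.29, limma adjusted p = 0.170), and Dhcr7 its ZT13 call without TSR ZT13 replicate 3 (-0.40, adjusted p = 0.163), in each case the highest adjusted p of any array left out.

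The SREBP target and the enzymes moved together from array to array to an unequal degree. The correlation of each with the mean of the other 5 over the 24 arrays, as a description, was highest for Sqle (Pearson r = 0.76) and Insig1 (r = 0.71), and 0.41 to 0.54 for Hmgcs1, Pmvk, Fdps and Cyp51. Srebf2 correlated with Sqle at 0.55 and with Insig1 at 0.19, and Insig2 with Insig1 at -0.02, over the same arrays. Arrays share treatment, time of day and the pattern described above, so these values describe the set and are not independent. The 10 tested probe sets closest to the mean of Insig1, Hmgcs1, Pmvk, Fdps, Sqle and Cyp51 over the 24 arrays were Mvd (r = 0.91, rho = 0.88), Lss (0.82, 0.80), Cstf2 (0.77, 0.84), Acsl3 (0.76, 0.75), Lacc1 (0.74, 0.74), Ralgps1 (0.73, 0.79), Fdft1 (0.72, 0.79), Ggt6 (0.70, 0.67), Zfand4 (0.70, 0.78) and Fasn (0.70, 0.62), with Pearson's r and Spearman's rho for each. Mvd, Lss and Fdft1 encode enzymes of the same pathway, and Fasn is fatty acid synthase.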

How the data were processed

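Liver RNA of 24 mice was measured on Affymetrix Mouse Gene 1.0 ST arrays. The deposited intensity values are the authors' d-Chip signals on a linear scale, with no d-Chip version or settings given in the sources used here. Both liver tables, 2 in number, held the same signals, with a largest difference of 0. Array medians ran from 88.96 to 108.83 in TSR and 84.54 to 100.87 in control liver. Detection columns and the 24 arrays labelled as white adipose tissue were not used. Of 28815 probe sets 24261 carried a symbol, of which 3315 were updated through RefSeq and 1136 kept as given.

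Signals, with a floor of 1, were taken to log2 and fitted with limma 3.58.1 in R 4.3.3 as 8 group means, with 24 h cosine and sine terms per treatment for rhythms and an F-test for effects that differ between time points. P-values were adjusted with Benjamini-Hochberg over 12803 probe sets of 11295 genes. For levels and the interaction they rest on a spread between mice, as the design text describes them, that is shared over the 8 groups of 3. For rhythms they rest on the spread around the fitted curves. The fits were also run on simulated data with independent noise for each probe set and array. Those data held no shared pattern and no pancreatic signal, so that run does not test the calls made here. The genes and related lists were chosen with earlier results of these data known, and some genes of the related lists are not reported here. Genes named from the lists are among the up to 4 per list and comparison with the smallest adjusted p under 0.05. Not every such call is named. The 10 probe sets most correlated with the enzymes and Insig1 were also named. Alternatives were the filter, quantile normalization, a pseudocount of 16, array weights, a replicate block, other tests and arrays left out. Same-numbered arrays correlated at -0.185 to 0.314 in their deviations from the group means, over 0.1 for 4 of 12 pairs. Figures were drawn with matplotlib 3.10.9.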

Additional observations from a re-analysis of the deposited data

Results flagged for a closer look

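The effect of TSR differed between the 4 time points for 2 of the 7 genes by a test of that difference itself, which called 20.6% of all tested probe sets. For Insig2 the limma interaction F-test gave an adjusted p of 0.0225, with differences of -0.23, -0.22, 0.54 and -0.55 from ZT1 to ZT19. For Insig1 it gave an adjusted p of 0.0455, with differences of -0.39, 0.13, -0.35 and 0.06. The call for Insig2 was kept without any single array, and that for Insig1 was lost without any of 14 arrays. Groups of 3 arrays were not searched for outlying values.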

How the results depend on the processing

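Counts are of the 7 genes called. Without a filter they were 0 at ZT13, 0 at ZT19, 0 in the mean, 0 for the TSR rhythm, 1 for the interaction and 5 steps. After quantile normalization they were 0 at ZT13, 0 in the mean and 1 for the interaction. With array quality weights they were 2 at ZT1, 2 at ZT7, 1 at ZT13, 4 at ZT19, 2 in the mean, 4 for the control rhythm, 3 for the TSR rhythm, 3 for the difference in rhythm, 7 for the interaction and 18 steps. For array quality weights the share of all tested probe sets called is not given here, so those counts do not set the genes apart. Without the 5 arrays of the shared pattern the counts were 1 at ZT13 and 2 in the mean over the remaining time points, with no value at ZT19. At ZT13, limma on 6 arrays gave 0 and the methods' two-tailed test 0. The TSR rhythm gave 3 in an F-test without a curve and 2 in a joint fit. With the replicate block, 0 were called in the mean and 0 for the TSR rhythm; same-numbered arrays share only a number. With single arrays left out, counts ran 0 to 0 at ZT1 and ZT7, 0 to 3 at ZT13, 0 to 1 at ZT19, 0 to 1 in the mean, 2 to 3 for the control rhythm, 0 to 1 for the TSR rhythm, 0 to 0 for the difference in rhythm, 1 to 3 for the interaction and 6 to 13 steps. The cause of these shifts was not tested. Quantile normalization changed the split of all calls, higher and lower in TSR, to 705 and 1205 at ZT7 (961 and 935 as deposited), 785 and 1538 at ZT13 (1104 and 1180), 1256 and 2359 in the mean (1770 and 1689), 122 and 124 at ZT1 (213 and 135) and 1108 and 1045 at ZT19 (1146 and 787). No called value changed sign. Precision is limited by 3 arrays per group.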
